A study of Mus musculus with 50 samples.

Results

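The 62 genes described here encode axon guidance ligands and receptors. They were taken by gene symbol from a table of read counts for 11708 genes, as every row named as an ephrin (Efna, Efnb) or Eph receptor (Epha, Ephb), a Slit or Robo, a class 3 to 7 semaphorin, plexin or neuropilin, or a netrin, Dcc, Neo1 or Unc5 receptor. The rule uses names alone, among the genes that the table holds. They fell into 4 ligand-receptor families: 20 ephrin and Eph genes (8 ligands, 12 receptors), 7 Slit and Robo genes (3 ligands, 4 receptors), 27 semaphorin, plexin and neuropilin genes (17 ligands, 10 receptors) and 8 netrin, Dcc, Neo1 and Unc5 genes (2 ligands, 6 receptors). Of the 70 mouse symbols that match these names, 8 (Epha1, Epha6, Ntn3, Ntn5, Plxnb3, Sema3b, Sema3d and Sema3e) were not analysed here.

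The counts came from RNA-seq of whole brain at embryonic day 13.5 in mice of strain FVB/ANTJ, in 18 libraries that form 6 groups of 3. The first set holds wild-type brains (wt), brains with genotype gtf2i and brains with genotype gtf2i/gtf2i. The second set holds its own wild-type brains and brains with genotypes ird1 and ird1/ird1. Gtf2i and Gtf2ird1 encode related transcription factors whose human counterparts lie in the interval deleted in Williams syndrome. The single names gtf2i and ird1 were read as 1 mutant and 1 wild-type allele, and the doubled names as mutant on both alleles. The labels describe neither the mutant alleles nor the sex or litter of the embryos, so p-values measure only the spread between these samples, which may be in part technical.

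Growing axons read guidance ligands in the tissue through receptors on the growth cone, and each family can attract or repel. Ephrins are bound to the membrane and signal both into the cell that carries the Eph receptor and back into their own. Slits are secreted repellents read by Robo receptors and are best known at the ventral midline, where netrin-1 attracts the same commissural axons through Dcc. Semaphorins are read by plexins, and most secreted class 3 semaphorins need a neuropilin as co-receptor.

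Library totals ran from 3239117 to 7371483 counts, and the 62 genes took 0.787% to 0.905% of them. The lowest count of any of the 62 in any library was 26. Against the labels, Gtf2i stood at 598 to 658 CPM (read counts relative to the library total, scaled by edgeR's TMM factors) in the wt brains of the gtf2i set, 363 to 375 in gtf2i and 81.8 to 83.3 in gtf2i/gtf2i. Gtf2ird1 stood at 90.4 to 114 CPM in the wt brains of the ird1 set and was higher, at 219 to 227, in the libraries labelled ird1/ird1, so its RNA level does not by itself show a loss there. It was also higher in gtf2i/gtf2i, at 245 to 286. The third gtf2i/gtf2i library stood apart from the other 2 gtf2i/gtf2i libraries. Its summed level of 16 neuron markers was 7527 CPM, against 5732 and 5823 in replicates 1 and 2 and 6922 to 7653 in wt. Its 62 guidance genes summed to 8717 CPM, against 7870 and 8079, with 8503 to 8749 in wt. Results for gtf2i/gtf2i are therefore given with and without it where that changes them. It was picked out in part by these same 62 genes, whose sum lay within the wt range. More calls without it could thus be foreseen and are not support. Those fits have no block and keep wt replicate 3, which has the same first number in its library title. That wt library had the highest neuron marker sum of its group. Its part in the larger differences was not tested.

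In wild type every family spanned a wide range of levels. Levels are compared as CPM per kilobase of transcript, as the median and range over the 6 wt libraries. Over all 62 genes the median was 16.1, against 11.4 for the 11700 genes with a known length. The transcripts of the 62 were longer than most, with a median of 5047.5 bases against 3633.5.

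Among ephrins the highest was Efnb3, a B-class ligand with a transmembrane domain, at 77.6 (range 67.6 to 82.9) CPM per kilobase, and the lowest was Efna1, an A-class ligand held by a lipid anchor, at 5.53 (range 4.28 to 6.83). Efnb1 was close to Efnb3 at 76.8 (range 63 to 97.1), and its mean was higher in wt of the ird1 set (87.5 against 79.5). Among Eph receptors Ephb2 was highest at 50.2 (range 48.4 to 53) and Epha10 was lowest at 2.34 (range 1.91 to 2.79). The 2 ends of the ligands and of the receptors thus lay far outside each other's range.

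Slit1 was the highest Slit at 32.8 (range 30.4 to 41.9) CPM per kilobase and Slit3 the lowest of all 62 genes at 2.09 (range 1.81 to 3.29). In wt of the gtf2i set alone the mean of Slit3 was 2.79, above Sema3g (2.31) and Epha10 (2.59). Robo1, a main Slit receptor of growing axons, reached 42.4 (range 33.3 to 53.1), and Robo4, known from blood vessels, 4.04 (range 2.71 to 4.78). Plxnb2, a receptor for class 4 semaphorins, was the highest of the 62 at 92.1 (range 83.6 to 114), and Plxnc1, the receptor of Sema7a, was the lowest semaphorin receptor at 10.7 (range 9.19 to 14.7). Among semaphorins the membrane-bound Sema6c was highest at 43.5 (range 37.3 to 61.7) and the secreted Sema3g lowest at 2.23 (range 1.94 to 2.97). Ntn1 encodes netrin-1 and stood at 29.3 (range 24.3 to 35.2), above Ntn4 at 7.94 (range 5.78 to 10). Of the netrin receptors, Neo1 was highest at 37.2 (range 29.3 to 43) and Unc5d lowest at 2.52 (range 2.22 to 3.47).

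**Figure D1:**
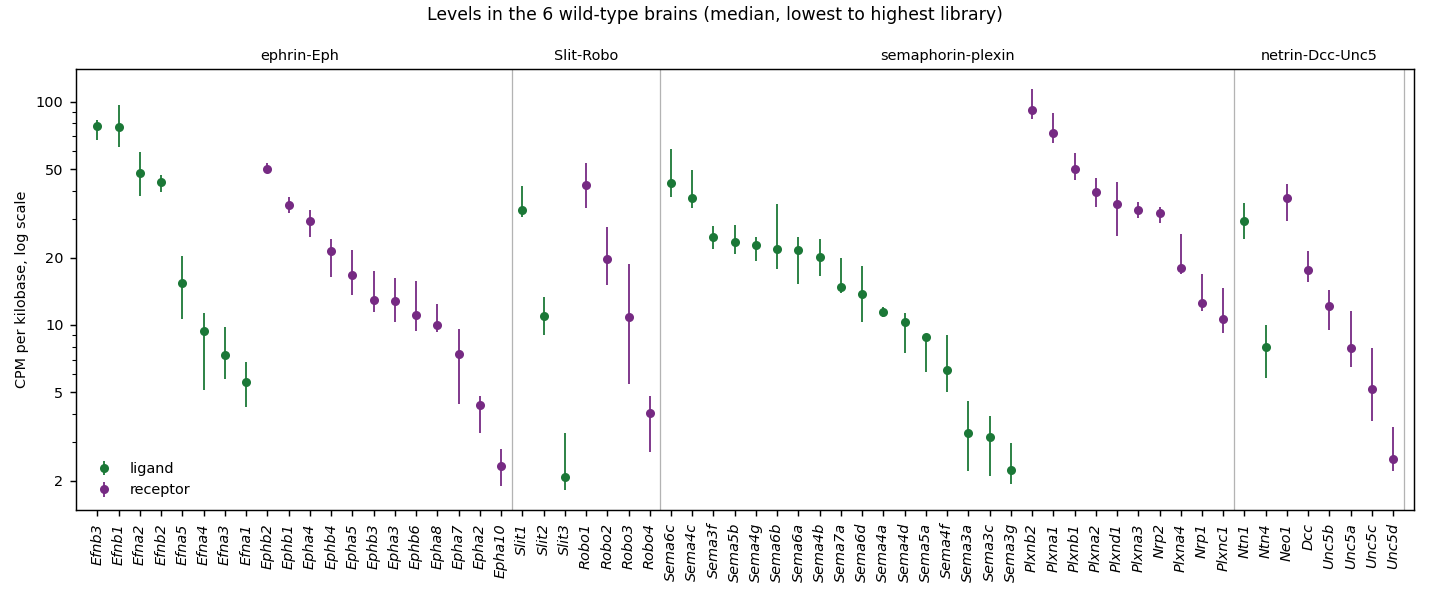
Level of each of the 62 genes in wild type, on a log axis of CPM per kilobase. Points are the median and lines the lowest to highest of 6 wt libraries, green for ligands and purple for receptors, sorted within family and role. Levels run from 2.09 for Slit3 to 92.1 for Plxnb2, and every family spans a wide range.

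In gtf2i/gtf2i brains Efna2, an ephrin ligand known for its part in topographic mapping, rose to 148% of wt, and Efnb2, an ephrin that binds B-class Eph receptors and Epha4, fell to 76.1% of wt. These 2 of the 62 genes passed edgeR's quasi-likelihood test at a Benjamini-Hochberg adjusted p under 0.05 over all 11708 genes, which is the meaning of "rose" and "fell" below. Among all genes 0.94% passed (0.41% higher, 0.53% lower). Of the 62 log2 differences 44 were below 0, that of Efnb2 among them, against 49.6% of all genes, and the median was -0.14, against 0.00 for all genes. At an unadjusted p under 0.05 there were 22 of 62, against 14.4% of all genes, with 5 higher (6.08% of all genes) and 17 lower (8.3% of all genes). The 3 gtf2i/gtf2i libraries lay wholly above or below the 3 wt libraries for 18 of 62, against 16.8%.

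The 27 genes of the semaphorin family made up much of this lower side. Their log2 differences were below 0 for 24 of 27 with a median of -0.24, while the median was -0.07 for ephrins and Ephs, -0.01 for Slits and Robos and 0.06 for netrins and their receptors. With RLE size factors 23 of 27 were below 0, and with a trend over transcript length removed 22 of 27, at a median of -0.23. With that trend removed the 27 also had a median below 0, -0.12, between ird1/ird1 and their wt. Between gtf2i/gtf2i and wt, none of the 27 passed the adjusted test with TMM factors and no trend removed. In that fit 11 had an unadjusted p under 0.05, all of them lower, against 8.3% of all genes lower. Without the third wt library that number was 5 (5.29% of all genes), and without the first gtf2i/gtf2i library it was 6 (5.76%). Without the third gtf2i/gtf2i library it was 12 (13.1% of all genes), and 4 of the 27, Plxna2, Plxna3, Plxna4 and Plxnc1, passed the adjusted test, all lower, against 6.29% of all genes lower. In bulk tissue fewer cells of a type and less RNA per cell cannot be told apart.

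**Figure D2:**
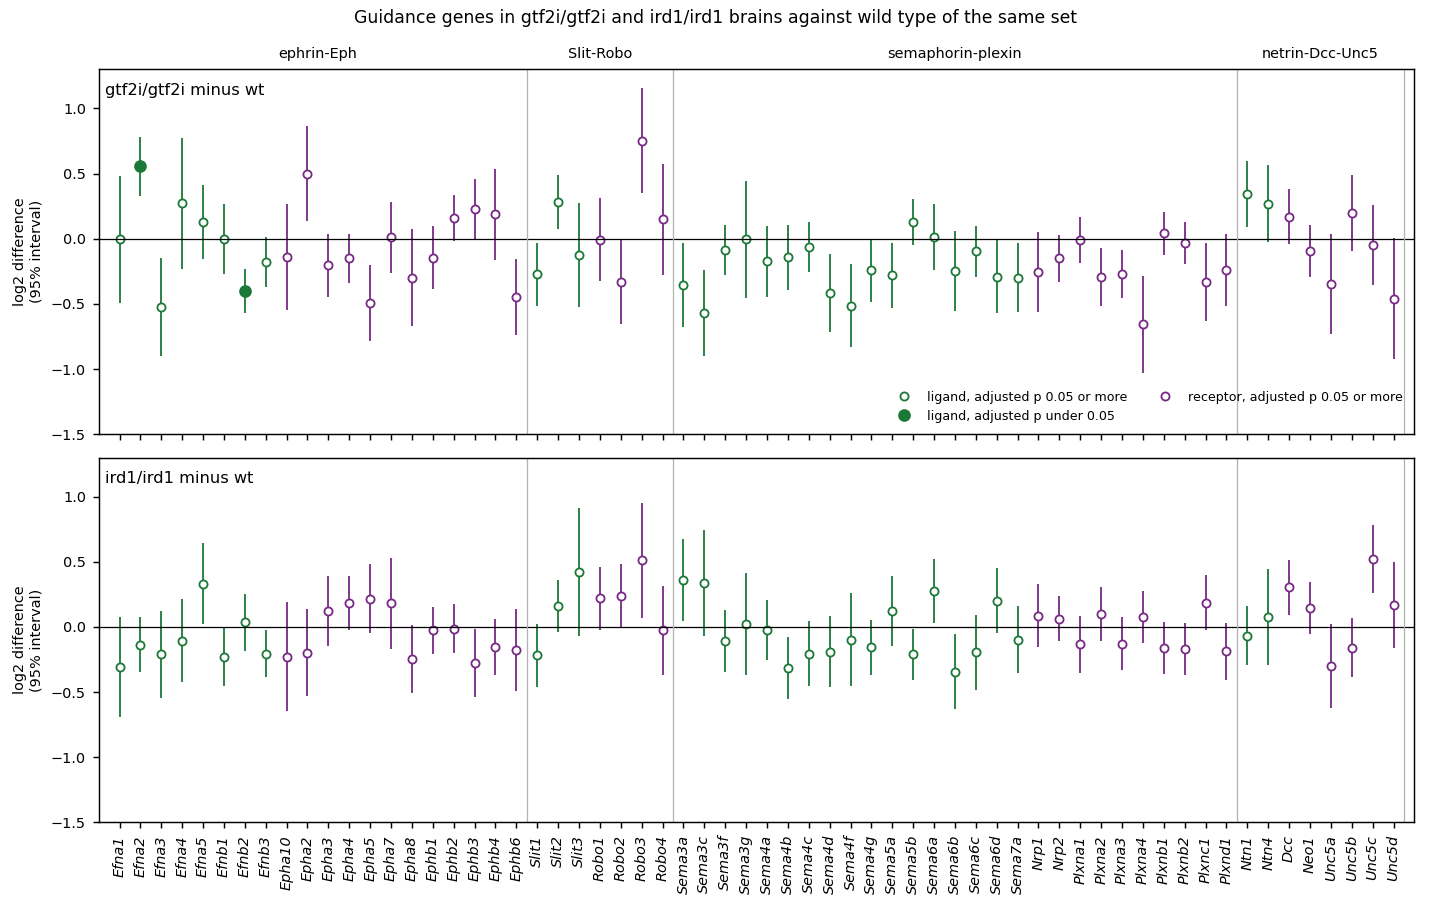
Log2 difference from wild type of the same set for each of the 62 genes, upper panel gtf2i/gtf2i and lower panel the libraries labelled ird1/ird1. Points are estimates and lines 95% intervals from the edgeR fit, green for ligands, purple for receptors, and filled where the adjusted p is under 0.05. Efna2 and Efnb2 are the filled points, and 24 of 27 semaphorin family genes lie below 0 in the upper panel.

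The title numbers of the libraries pair each gtf2i/gtf2i library with a wt library. With that pairing as a block, 6 of the 62 genes passed edgeR's adjusted test, against 5.33% of all genes. Efna2 and Robo3 rose (2.03% of all genes rose), and Efnb2, Plxna4, Epha5 and Sema3c fell (3.3% fell). Against the gtf2i brains, without a block, 10 of the 62 passed, against 3.12% of all genes: Efna2 and Robo3 rose (1.33% of all genes rose) and Efnb2, Epha5, Ephb6, Sema3c, Sema4d, Plxna2, Plxna3 and Plxna4 fell (1.79% fell). At an unadjusted p under 0.05 there were 26 of 62, against 16.5% of all genes, with 8 higher (7.14% of all genes) and 18 lower (9.39% of all genes). The 2 comparisons share the 3 gtf2i/gtf2i libraries and are not independent. In 23 of 62 genes the gtf2i/gtf2i libraries lay wholly outside the gtf2i libraries, against 19.2% of all genes. Values for these genes follow by family.

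**Figure D3:**
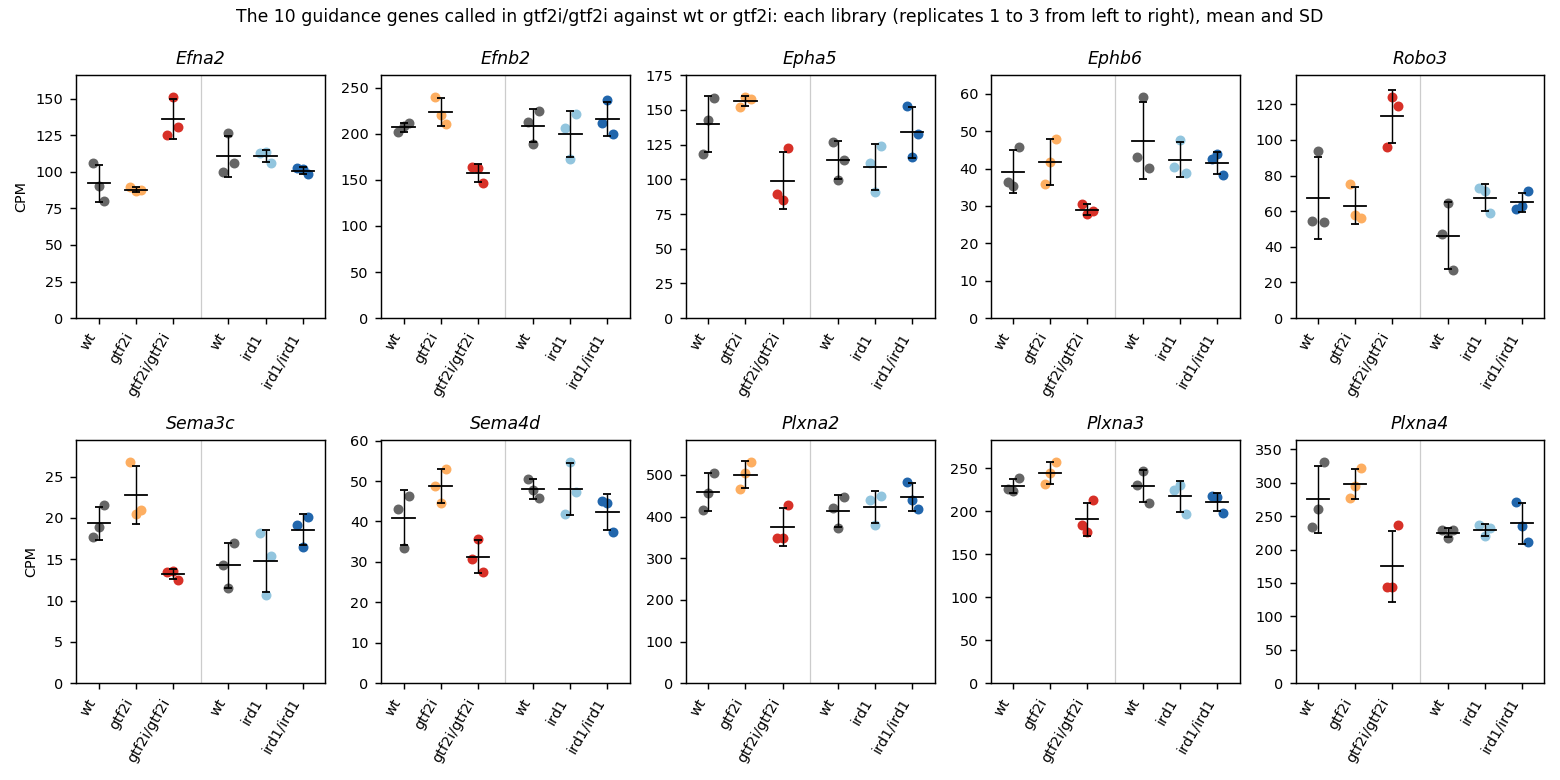
CPM in each library for the 10 genes that passed the adjusted test against wt or gtf2i, with the mean and SD of each group of 3. The gtf2i set is left of the grey line and the ird1 set right of it. All 10 separate gtf2i/gtf2i from gtf2i, and Epha5, Sema4d, Plxna2 and Plxna4 overlap wt.

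Efna2 (ENSMUSG00000003070, chr10:80179482-80190010, build GRCm38.p6 in RefSeq) stood at 106, 90.1 and 80.3 CPM in wt, 89.8, 86.6 and 87.5 in gtf2i and 126, 152 and 131 in gtf2i/gtf2i, in replicates 1, 2 and 3. All 3 gtf2i/gtf2i libraries were above all 6 others of the set. The group means were 92.1 ± 12.9, 88 ± 1.64 and 136 ± 13.7 CPM (SD, n = 3). The log2 difference was 0.55 (SE 0.106) from wt with an edgeR adjusted p of 0.0242, and 0.62 (SE 0.107) from gtf2i with 0.00849. Leaving out wt replicate 2 or 3 or gtf2i/gtf2i replicate 2 raised the edgeR adjusted p against wt to 0.0763, 0.132 and 0.151. When wt and gtf2i/gtf2i were fitted without the gtf2i libraries, Efna2 and Efnb2 both had an edgeR adjusted p of 0.0907 against wt, so 0 of the 62 passed, against 0.265% of all genes, and 19 had an unadjusted p under 0.05 (5.42% of all genes higher and 6.76% lower).

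Efnb2 (ENSMUSG00000001300, chr8:8617235-8661242) went the other way. It stood at 202, 208 and 212 CPM in wt, 241, 221 and 211 in gtf2i and 165, 163 and 146 in gtf2i/gtf2i, so the 3 gtf2i/gtf2i libraries were the lowest 3 of the 9. Its means were 207 ± 4.89, 224 ± 15 and 158 ± 10.1 CPM (SD, n = 3). The log2 difference was -0.40 (SE 0.0797, edgeR adjusted p 0.0311) from wt and -0.51 (SE 0.0797, edgeR adjusted p 0.00465) from gtf2i. Against wt the edgeR adjusted p was above the threshold when any 1 of the 3 wt libraries, or gtf2i/gtf2i replicate 1 or 2, was left out, from 0.0547 to 0.167, and 0.0141 without gtf2i/gtf2i replicate 3.

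The sequences upstream of Efna2, Efnb2 and Robo3 are shown because Efna2 and Robo3 carried the 2 rises in gtf2i/gtf2i and Efnb2 the fall that passed against both wt and gtf2i. Each is the 250 bases before the RefSeq start site on the gene's strand, 5′ to 3′, build GRCm38.p6: chr10:80179232-80179481, plus strand for Efna2, chr8:8661243-8661492, minus strand for Efnb2 and chr9:37433176-37433425, minus strand for Robo3. Capitals mark GGATTA on either strand, a core bound by Gtf2ird1 protein in vitro.
Efna2: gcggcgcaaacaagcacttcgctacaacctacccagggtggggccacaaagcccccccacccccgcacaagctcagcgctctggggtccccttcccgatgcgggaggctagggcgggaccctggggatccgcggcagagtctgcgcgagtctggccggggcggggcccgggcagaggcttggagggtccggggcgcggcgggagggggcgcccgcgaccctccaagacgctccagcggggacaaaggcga
Efnb2: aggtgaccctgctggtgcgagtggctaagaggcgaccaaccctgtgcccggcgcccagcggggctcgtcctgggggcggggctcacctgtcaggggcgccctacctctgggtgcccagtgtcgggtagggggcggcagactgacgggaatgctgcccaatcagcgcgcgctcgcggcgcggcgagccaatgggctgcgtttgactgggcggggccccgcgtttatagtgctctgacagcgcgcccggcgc
Robo3: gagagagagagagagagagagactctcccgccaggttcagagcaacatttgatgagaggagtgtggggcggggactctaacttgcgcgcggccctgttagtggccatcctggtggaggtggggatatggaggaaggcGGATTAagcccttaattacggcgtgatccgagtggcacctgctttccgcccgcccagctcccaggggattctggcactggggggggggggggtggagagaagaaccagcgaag

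RefSeq promoter windows were found for 53 of the 62 genes, 69 windows in all. The upstream 250 bases held GGATTA in 2 of the 69 (2.9%), those of Robo3 and Robo4, against 4.8% of 11763 windows of all genes in the table. The Robo3 match begins 113 bases before the start site. CACGTG, an E-box (its own reverse complement), lay in 4 of the 69 (5.8%), of Epha8, Robo2, Sema4b and Sema6d, against 8.29% of all windows. The Efna2 and Efnb2 windows held neither motif. They were rich in CG pairs, with 25 and 27, against a median of 16 over all windows and 12 upstream of Robo3.

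Of the 12 Eph receptors, 2 fell against gtf2i. Epha5 encodes an A-class receptor that reads Efna2 and other A ephrins. It stood at 118, 143 and 158 CPM in wt, 152, 159.6 and 158 in gtf2i and 89.4, 85.2 and 123 in gtf2i/gtf2i. Replicate 3 of gtf2i/gtf2i lay within the wt range and below every gtf2i library. The log2 difference was -0.66 (SE 0.136, edgeR adjusted p 0.0223) from gtf2i and -0.50 (SE 0.136, edgeR adjusted p 0.0883, 0.0098 with the pairing as a block) from wt. Without that replicate the value against wt was -0.68 with an edgeR adjusted p of 0.00161.

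Ephb6, a B-class receptor whose kinase domain lacks activity, stood at 36.4, 35.3 and 45.7 CPM in wt, 35.7, 41.8 and 47.9 in gtf2i and 30.6, 27.7 and 28.5 in gtf2i/gtf2i. The gtf2i/gtf2i libraries were the lowest 3 of the 9. Its log2 difference from gtf2i was -0.54 (SE 0.137) with an edgeR adjusted p of 0.0498, just under the threshold, and from wt -0.45 (SE 0.137) with 0.127. The call against gtf2i was lost with RLE size factors (0.0508 by edgeR), with a minimum mean of 10 CPM (0.0516), and without gtf2i replicate 2 or 3 or gtf2i/gtf2i replicate 1 or 2 (0.116 to 0.27). In the fit of all 9 libraries without a block, the other 10 Eph receptors did not pass in either comparison. Their log2 differences from wt ran from -0.30 for Epha8 to 0.50 for Epha2, and of the 6 other ephrins from -0.52 for Efna3 to 0.27 for Efna4.

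In the Slit family Robo3 was the 1 gene that passed when all 9 libraries were fitted without a block. Robo3 (ENSMUSG00000032128, chr9:37416045-37433436) encodes a divergent Robo receptor that commissural axons need to cross the midline. It stood at 54.4, 93.7 and 53.9 CPM in wt, 75.3, 57.9 and 56.3 in gtf2i and 96.2, 124 and 119 in gtf2i/gtf2i. The gtf2i/gtf2i libraries were the highest 3, but wt replicate 2 came within a few CPM of the lowest of them. Robo3 stood at 179% of its level in gtf2i and 168% of that in wt. The log2 difference was 0.84 (SE 0.189, edgeR adjusted p 0.0303) from gtf2i and 0.75 (SE 0.188, edgeR adjusted p 0.0683, 0.0132 with the block) from wt. Without wt replicate 2 the value against wt was 1.06 with an edgeR adjusted p of 0.00483.

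Slit2 had the smallest p of the 3 Slits against wt. It stood at 116, 133 and 114 CPM in wt, 139, 123 and 117 in gtf2i and 139, 145 and 159 in gtf2i/gtf2i, above wt in all 3 libraries. Its log2 difference from wt was 0.28 (SE 0.0964), and the edgeR adjusted p was 0.176. Slit1 lay at -0.27 and Slit3 at -0.13, so the 3 ligands did not share a direction. Robo1 lay at -0.01, Robo2 at -0.33 and Robo4 at 0.15, none past the adjusted test in that fit. Robo2 and Slit1 passed against both wt and gtf2i without gtf2i/gtf2i replicate 3.

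In the semaphorin family 2 ligands and 3 receptors fell against gtf2i, and no member rose, in the fit of all 9 libraries without a block. Sema3c, a secreted semaphorin, stood at 17.7, 18.9 and 21.6 CPM in wt, 26.8, 20.4 and 21 in gtf2i and 13.4, 13.6 and 12.5 in gtf2i/gtf2i. The gtf2i/gtf2i libraries were the lowest 3 of the 9 and lay close together. The log2 difference was -0.79 (SE 0.151, edgeR adjusted p 0.0139) from gtf2i and -0.57 (SE 0.153, edgeR adjusted p 0.0841, 0.0367 with the block) from wt. Sema4d, a membrane-bound ligand of Plxnb1, stood at 43, 33.4 and 46.4 CPM in wt, 48.7, 44.5 and 53 in gtf2i and 30.8, 35.6 and 27.5 in gtf2i/gtf2i. It overlapped wt but not gtf2i. From wt it differed by -0.41 in log2 (SE 0.139, edgeR adjusted p 0.169), and from gtf2i by -0.66 (SE 0.138), where the edgeR adjusted p stood at 0.0237.

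The A-class plexins, which form the receptors for class 3 and class 6 semaphorins, made up the 3 receptors. Plxna4 stood at 234, 260.1 and 331 CPM in wt, 277, 295 and 321 in gtf2i and 145, 144 and 236 in gtf2i/gtf2i. Replicates 1 and 2 of gtf2i/gtf2i were far below every other library, while replicate 3 lay just above the lowest wt library. The log2 difference was -0.77 (SE 0.173, edgeR adjusted p 0.0308) from gtf2i and -0.66 (SE 0.173, edgeR adjusted p 0.0804, 0.00612 with the block) from wt. Without replicate 3 the value against wt was -0.93, with an edgeR adjusted p of 0.000246.

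Plxna3 stood at 225, 224 and 238 CPM in wt, 231, 244 and 257 in gtf2i and 184, 176 and 212 in gtf2i/gtf2i, below both other groups in all 3. Plxna2 stood at 415, 456 and 505 CPM in wt, 466, 503 and 531 in gtf2i and 349.7, 348 and 428 in gtf2i/gtf2i, and replicate 3 of gtf2i/gtf2i lay within the wt range. From gtf2i the log2 differences were -0.36 (SE 0.0867, edgeR adjusted p 0.0386) for Plxna3 and -0.42 (SE 0.103, edgeR adjusted p 0.0438) for Plxna2. From wt they were -0.27 (SE 0.0867, edgeR adjusted p 0.145, and 0.0108 without replicate 3) and -0.30 (SE 0.103, edgeR adjusted p 0.187, and 0.0129 without replicate 3). With the gtf2i/gtf2i and gtf2i libraries fitted alone, the edgeR adjusted p of Plxna3 against gtf2i was 0.0612. Plxna1 did not follow, at -0.01 from wt and -0.02 from gtf2i. The summed level of the 10 semaphorin receptors was 2762 to 2969 CPM in gtf2i/gtf2i, against 3111 to 3193 in wt, and that of the 17 ligands 1196 to 1267, against 1301 to 1370. Neither pair of ranges overlapped.

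No gene of the netrin family passed in the gtf2i set when all 9 libraries were fitted without a block. Ntn1, which codes for netrin-1, stood at 164, 179.8 and 143 CPM in wt, 165, 137 and 194 in gtf2i and 199.7, 202 and 218 in gtf2i/gtf2i, where all 3 libraries were above the other 6. Its log2 difference from wt was 0.35 (SE 0.118, edgeR adjusted p 0.172), and that of Ntn4 was 0.27. Unc5d, a netrin receptor linked to repulsion, stood at 23.7, 25.9 and 32 CPM in wt, 27.3, 27.8 and 25.9 in gtf2i and 14.9, 15 and 28.7 in gtf2i/gtf2i. Replicates 1 and 2 of gtf2i/gtf2i were well below the rest and replicate 3 within the wt range. The log2 difference from wt was -0.46 (SE 0.216, edgeR adjusted p 0.35) with replicate 3, and ran from -0.87 to -0.28 over the alternative fits. It was -0.87 (edgeR adjusted p 0.00425) without replicate 3. Against gtf2i and without that library, the netrin receptors Unc5a, Unc5d and Neo1 were lower and Unc5b higher past the adjusted test, in a fit that called 7.24% of all genes lower and 4.51% higher. Dcc, the receptor through which netrin-1 attracts, lay at 0.17.

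How many of the 62 passed depended on single libraries. Against wt, 13 passed without the third gtf2i/gtf2i library (3 higher, 10 lower, against 9.9% of all genes): Efna2, Efnb2, Epha5, Epha8, Ephb4, Plxna2, Plxna3, Plxna4, Plxnc1, Robo2, Robo3, Slit1 and Unc5d. Without any other single library of wt or gtf2i/gtf2i the number was 0 or 1. Against gtf2i, 21 passed without the third gtf2i/gtf2i library, against 11.8% of all genes, among them all 10 named above, and Efnb2 was the 1 gene that passed in every fit that left out a library. Leaving out gtf2i replicate 2 or 3, or gtf2i/gtf2i replicate 1 or 2, left 2 or 3. The fits without the third gtf2i/gtf2i library had no block and kept the libraries that share its title number.

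Summed cell type markers also differed between these groups. Over 16 neuron markers, gtf2i/gtf2i replicates 1 and 2 had 5732 and 5823 CPM, against 6922 to 7653 in wt, and replicate 3 had 7527. None of the 16 passed against wt by edgeR, and 5 had an unadjusted p under 0.05, all lower. The 17 telencephalon markers summed to 1555, 1498 and 1423 CPM, against 1898 to 2135 in wt, and 7 of 17 fell. The 14 radial glia markers summed to 3779 to 4351 CPM, against 3118 to 3511, with none past the adjusted test but 7 higher and 1 lower at an unadjusted p under 0.05, and the 8 measured of 11 red blood cell markers to 5790 to 9184, against 4091 to 5314, with 2 of 8 higher. Endothelial markers (11 of 12 measured) summed to 520 to 592 CPM against 477 to 563, and mesenchyme markers (13 of 13) to 1592 to 2389 against 1429 to 1627. These calls are without a block. With the pairing as a block, 4 of 16 neuron and 11 of 17 telencephalon markers fell, 6 of 14 radial glia and 5 of 8 red blood cell markers rose, 3 of 13 mesenchyme markers rose and 1 fell, and no endothelial marker passed. Against gtf2i, without a block, 10 of 17 telencephalon markers and 1 of 16 neuron markers fell, and 5 of 8 red blood cell, 3 of 14 radial glia and 1 of 13 mesenchyme markers rose. In the gtf2i libraries the telencephalon markers summed to 2125 to 2199 CPM, the neuron markers to 7096 to 7418, the red blood cell markers to 3796 to 4196 and the radial glia markers to 3204 to 3709. The mesenchyme markers summed there to 1348 to 1823 CPM and the endothelial markers, of which 0 of 11 passed, to 422 to 526. Of 8 skeletal muscle markers 0 were in the table. The part of these markers in the guidance gene values was not tested.

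Other genes of guidance signalling, in a list of 89 receptors, adhesion molecules and cytoplasmic effectors of which 86 were in the table, were tested in the same way. Against wt, 1 of 86 fell, against 0.53% of all genes, and 0 rose: the 1 was Ntng2, a membrane-anchored netrin-G, with a log2 difference of -0.66 and an edgeR adjusted p of 0.0458. With the pairing as a block 8 of 86 fell and 1, the Shh co-receptor Boc, rose, against 3.3% and 2.03% of all genes. Against gtf2i, without a block, 7 of 86 fell, against 1.79% of all genes, and 0 rose, with log2 differences from -1.13 for Ablim3, an actin-binding protein, to -0.43 for Flrt1, an adhesion molecule that can bind Unc5 and Robo receptors. The others were Ntng2 (-0.72), Ntng1 (-0.69), the adhesion molecules Dscaml1 (-0.75) and L1cam (-0.60), and Cdon (-0.47), another Shh co-receptor. At an unadjusted p under 0.05, 1 was higher and 18 lower against wt, where 6.08% of all genes were higher and 8.3% lower, and the median over the 86 was -0.07.

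With 1 mutant allele no guidance gene differed by the same test. Between gtf2i and wt edgeR's quasi-likelihood test called 0 of 62 at an adjusted p under 0.05, against 0.00854% of all genes, 0 of 62 at an unadjusted p under 0.05 (1.6% of all genes), and DESeq2 called 0. The smallest p was that of Sema4d, at a log2 difference of 0.24 (SE 0.133). The 3 gtf2i libraries lay wholly below wt for Sema3f (-0.14), Sema6a (-0.13) and Ephb2 (-0.07), and wholly above for none, which makes 3 of 62 against 7.27% of all genes (3.79% lower). These 3 genes are named after their values were seen. Differences of Efna2 and Efnb2 were -0.07 (95% interval -0.30 to 0.16) and 0.11 (95% interval -0.06 to 0.28).

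In the ird1 set no guidance gene passed. Between the libraries labelled ird1/ird1 and their wt, edgeR called 0 of 62, against 0.00854% of all genes, and DESeq2 called 0. At an unadjusted p under 0.05 there were 12 of 62, against 16.1% of all genes, with 6 higher (7.7% of all genes) and 6 lower (8.4% of all genes). The groups did not overlap for 14 of 62, against 26.9%. The members' shares were 19.4% and 22.6%, the first near and the second below that of all genes. Wt replicate 2 of this set had the lowest library total. Without it 5 of 62 had an unadjusted p under 0.05 by edgeR, against 3.6% of all genes higher and 3.89% lower. The median log2 difference of the 62 was then 0.008, against -0.047 with it.

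The gene of the 62 with the smallest p there was Unc5c, a netrin receptor linked to repulsion. It stood at 47.9, 35.9 and 40.4 CPM in wt, 54.5, 42.8 and 47.4 in ird1 and 63.2, 57.6 and 60.9 in ird1/ird1. The ird1/ird1 libraries were above the other 6, with a log2 difference from wt of 0.52 (SE 0.123, edgeR adjusted p 0.296). The same gene was at 52.2, 69.9 and 76.3 CPM in the wt brains of the gtf2i set, where 2 of the 3 libraries lay above all 3 ird1/ird1 libraries.

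Robo3 stood at 47, 64.5 and 27.2 CPM in wt, 72.9, 71.1 and 59 in ird1 and 61.2, 62.9 and 71.1 in ird1/ird1. The wt libraries were spread widely and overlapped both groups, and the log2 difference from wt was 0.51 (SE 0.207, edgeR adjusted p 0.296). Over the alternative fits that difference ran from 0.25 to 0.78. Efnb3 stood at 251, 264 and 244 CPM in wt, 246, 272 and 246 in ird1 and 223, 227 and 213 in ird1/ird1. Its 3 ird1/ird1 libraries were the lowest of the set, at a log2 difference from wt of -0.21 (SE 0.0848, edgeR adjusted p 0.296). Sema4b, a membrane-bound semaphorin, stood at 82.1, 96.1 and 81.7 CPM in wt and 70.6, 74.8 and 63.7 in ird1/ird1, which did not overlap, and differed by -0.31 in log2 (SE 0.111), where edgeR gave an adjusted p of 0.296. For the remaining genes with the smallest p of their family and role, the log2 differences, with the SE and edgeR adjusted p in parentheses, were -0.27 (SE 0.122, 0.303) for Ephb3, -0.22 (SE 0.114, 0.332) for Slit1, 0.19 (SE 0.0992, 0.334) for Plxnc1 and -0.07 (SE 0.106, 0.739) for Ntn1. Over the alternative fits these values ran from -0.34 to -0.14 for Ephb3, -0.31 to -0.08 for Slit1 and 0.05 to 0.26 for Plxnc1. For the semaphorin family 16 of 27 were below 0, against 50.5% of all genes, and 21 of 27 once a trend with transcript length was removed.

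In the ird1 set Efna2 stood at 99.7, 127 and 106 CPM in wt, 113, 114 and 106 in ird1 and 102, 102 and 98.4 in ird1/ird1. Efnb2 stood there at 213, 189 and 225 CPM in wt, 206, 173 and 221 in ird1 and 212, 237 and 200.4 in ird1/ird1. The ird1/ird1 libraries overlapped wt for both genes. Between ird1 and wt edgeR called 0 of 62 (0% of all genes) with 1 at an unadjusted p under 0.05 (3.02% of all genes), which was Robo3 at 0.58, and DESeq2 called 0. Between ird1/ird1 and ird1 edgeR called 0 (0% of all genes), with 7 at an unadjusted p under 0.05 (4.66%), and DESeq2 called 0. Of the 86 other guidance genes 0 passed in any of these 3 comparisons by edgeR, and 12 higher and 7 lower had an unadjusted p under 0.05 between ird1/ird1 and wt, against 7.7% and 8.4% of all genes.

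**Figure D4:**
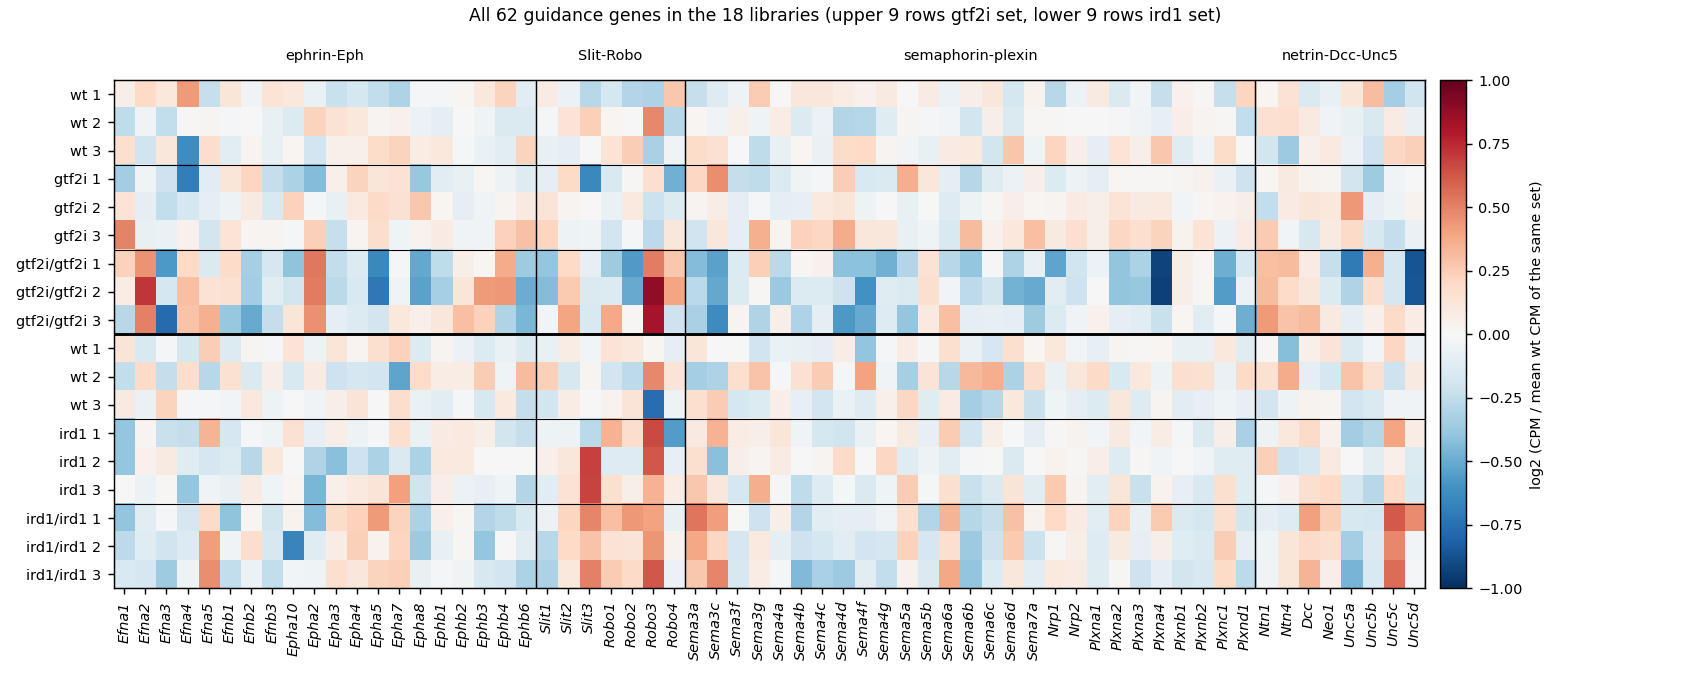
Log2 ratio of each library's CPM to the mean of the wt libraries of its own set, for the 62 genes (columns, by family) and 18 libraries (rows). Below their wt mean were 41, 41 and 35 genes in gtf2i/gtf2i replicates 1, 2 and 3, and 31, 33 and 38 in ird1/ird1. The wt libraries themselves had 32, 35 and 28 below that mean in the gtf2i set and 33, 28 and 40 in the ird1 set, so gtf2i/gtf2i replicate 3 and all ird1/ird1 libraries lay within the wt range. The darkest blue cells are Plxna4 and Unc5d in gtf2i/gtf2i replicates 1 and 2.

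The difference between the effects of the mutations was tested as gtf2i/gtf2i minus wt less ird1/ird1 minus wt, over all 18 libraries. Of the 62 genes 0 passed edgeR's adjusted test, against 0.171% of all genes, and DESeq2 called 1. At an unadjusted p under 0.05 there were 18, against 13% of all genes, with 5 higher (6.48% of all genes) and 13 lower (6.47% of all genes). Efna2 came closest, at 0.69 (SE 0.145) between the log2 effects, where the adjusted p from edgeR was 0.0502. With the title number as a block, Efna2 (0.0178) and Plxna4 (0.0474) had edgeR adjusted p under 0.05, against 0.709% of all genes. Without gtf2i/gtf2i replicate 3, and without a block, 9 of the 62 passed, against 6.18% of all genes.

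Before correction, the wt brains of the 2 sets differed in many genes of the table, guidance genes among them. edgeR called 0 of 62 (0% of all genes), DESeq2 called 9 (13.4% of the genes it gave an adjusted p), and 26 of 62 had an unadjusted p under 0.05, against 32.7% of all genes. Of these, 12 were higher in the ird1 set (15.6% of all genes) and 14 lower (17.1% of all genes). The 2 wt groups did not overlap for 26 of 62, against 32% of all genes. The DESeq2 count was near the share of all genes. The largest of the 4 with the smallest edgeR adjusted p (0.0689) was Unc5c at a log2 difference of -0.66, and the others were Sema3a (-0.49), Plxnc1 (-0.42) and Plxnb2 (0.26). These 3 genes were named after their values were seen. The sets share no title number, so set and title number cannot be told apart. Without wt replicate 1 of the gtf2i set 17 of 62 passed edgeR's adjusted test, against 17.7% of all genes. Without wt replicate 1 of the ird1 set it was 5, near the 8.81% of all genes.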

How the data were processed

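The authors deposited 1 table of whole-number read counts per gene for the 18 RNA libraries. Per the labels' protocols, ribosomal RNA was depleted and NEBNext Ultra II libraries were made. The submitters' processing notes name Trimmomatic, STAR, HTSeq and build mm10, without versions or settings, and the strand setting is not given in the sources used here. The table holds genes above about 2.9 CPM in each library, and every gene in it was kept. Of 50 samples in the series, the 32 binding libraries were not analysed here.

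Counts were fitted with edgeR 4.0.16 (R 4.3.3) by its quasi-likelihood test with TMM factors, 9 libraries per set, or all 18 for comparisons between sets. Adjusted p-values (Benjamini-Hochberg) are over 11708 genes, with 0.05 as threshold. Residual degrees of freedom were 6 per set and 12 over both, and the biological coefficient of variation was 10.4% and 10.05%. Alternatives were RLE factors, DESeq2 1.42.0, a minimum mean of 10 CPM, no filter, fewer or more libraries, a block for the number in the library title, removal of a lowess trend over transcript length (span 0.5), and each library left out. Scripts were tested on simulated counts.

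Libraries with the same title number were checked for shared deviations from their group means. Between gtf2i/gtf2i and wt the correlations were 0.377, 0.103 and 0.52, all above 0.1, and the numbers were taken to pair these libraries. Libraries with different title numbers were not compared in this way. The correlations thus have no reference and cannot show by themselves that the pairs are real. The reported fit has no block, and for that comparison calls with the title number as a block are given beside it. Other comparisons with a block are given as counts in the closing section. The meaning of the number is not given in the labels. Replicates within a group differed by more than counting noise, with a chi-square over genes of 2.9 to 29.5 times its degrees of freedom.

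All 62 genes matched RefSeq by symbol, and their gene identifiers carried the same symbols in a separate list of gene names. Named with full statistics were all genes called in any comparison by the reported fit, which has no block. Per family and role, the gene with the smallest p in gtf2i/gtf2i and in ird1/ird1 against wt was also named so. Named with levels were the highest and lowest of each family and role. The 62 genes, the gene lists and the tests were chosen with earlier results of these data known.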

Additional observations from a re-analysis of the deposited data

How the results depend on the processing

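Counts of guidance genes past the edgeR adjusted p of 0.05 depended on the fit. For gtf2i/gtf2i against wt, 2 in the reported fit, DESeq2 gave 5, a fit to the compared groups alone 0, and there were 5 with the length trend removed, 6 with the replicate block, 15 with block and length trend removal together, and 0 to 13 with 1 library left out. Over all genes the same fits gave 110, then 310, 31, 297, 624, 844 and 28 to 1159. For gtf2i/gtf2i against gtf2i, 10 in the reported fit, there were 16 with the replicate block, 24 with block and length trend removal, and 2 to 21 with 1 library left out; over all genes 365, then 892, 1096 and 67 to 1376. The gtf2i/gtf2i and gtf2i libraries share title numbers too, and the deviations of these pairs correlated at 0.114, 0.0576 and 0.0614. For the difference between effects, 0 in the reported fit, there were 1 with DESeq2, 1 with the length trend removed, 2 with the replicate block, 1 with block and length trend removal, and 0 to 9 with 1 library left out; over all genes 20, then 84, 33, 83, 77 and 12 to 723. For wt of the ird1 set against wt of the gtf2i set, 0 in the reported fit, DESeq2 gave 9 and leaving out 1 library 0 to 17, over all genes 0, then 1354 and 0 to 2076. No paired analysis was possible for that comparison because the sets share no title number. The gtf2i against wt comparison and the 3 comparisons of the ird1 set gave 0 guidance genes under every alternative run, the replicate block included. Ntn1 between ird1/ird1 and wt turned from -0.07 to 0.015 without wt replicate 2, and ranged from -0.139 to 0.015 over single libraries left out. Fewer samples were fitted when a library was left out, and the cause of the other changes was not tested. Against wt the call of Efna2 was lost in 4 and that of Efnb2 in 6 of 15 alternatives, while Efnb2 against gtf2i kept its call in all 15. The fit with no filter is among the 15 but equals the reported fit, because the filter removed 0 genes. With 3 libraries a group, a difference that missed the threshold was not shown to be absent.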
